A study of Mus musculus with 2 samples.

Results

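Circadian clock genes were examined in 3D cultures of mouse mammary basal cells grown with or without M2-like macrophages. The set was 10 genes (Npas2, Clock, Arntl, Per1, Per2, Per3, Cry1, Nr1d1, Nr1d2 and Dbp) of the 49492 in the count table. They were chosen on the reads of the same 2 libraries that are compared here, above all because Npas2 had 0 reads in one of them, so their values are a description and no test was made. Basal cells were sorted from mammary glands of adult wild-type female mice and embedded in matrix gel. The ctrl library came from untreated cells. The M2 library came from cells co-cultured with bone marrow-derived macrophages that had been polarized with Il-4 and Il-13 and sat in a trans-well insert. A culture time of 11 to 14 days is recorded for both groups. Both received the same EGF-containing medium, per the study's methods. The methods also give a medium change every 2 days for the 3D cultures. The macrophages were replaced every 2 days, a step that the ctrl cultures, without macrophages, did not have. RNA of the cultured colonies and organoids was sequenced as 1 library per group, so how far cultures of 1 group vary is not known. The time of day at harvest and the time since the last medium change are not given in the sources used here. The group and the phase of the clock therefore cannot be told apart.

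The circadian clock is a feedback loop of transcription that most cells of the body run with a daily period. Clock or its paralog Npas2 pairs with Arntl (also called Bmal1), and the pair binds E-boxes to switch on the Per and Cry genes, whose proteins return to the nucleus and repress the pair. A second loop runs through the nuclear receptors Nr1d1 and Nr1d2 (REV-ERB alpha and beta), which the pair also switches on and which repress Arntl, Npas2 and other genes through RORE sites, while Dbp is a direct output that acts on D-boxes. In the mammary gland the clock is known to respond to differentiation and to the stiffness of the matrix.

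The plainest difference lay in Npas2. It had 0 reads in ctrl and 361 in M2, while the other 9 genes had between 389 and 3744 reads in each library and differed by at most 1.30-fold in either direction. Of the 10 genes, 1 was at least 2-fold higher in M2 and 0 were at least 2-fold lower. Among all 19233 genes with at least 10 reads over both libraries, 9.53% were at least 2-fold higher and 7.82% at least 2-fold lower. Among the 11721 genes with at least 300 reads, a range that holds all 10 clock genes, the shares were 5.49% and 3.74%. Since the genes were picked on this contrast, nothing is read from their count.

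**Figure D1:**
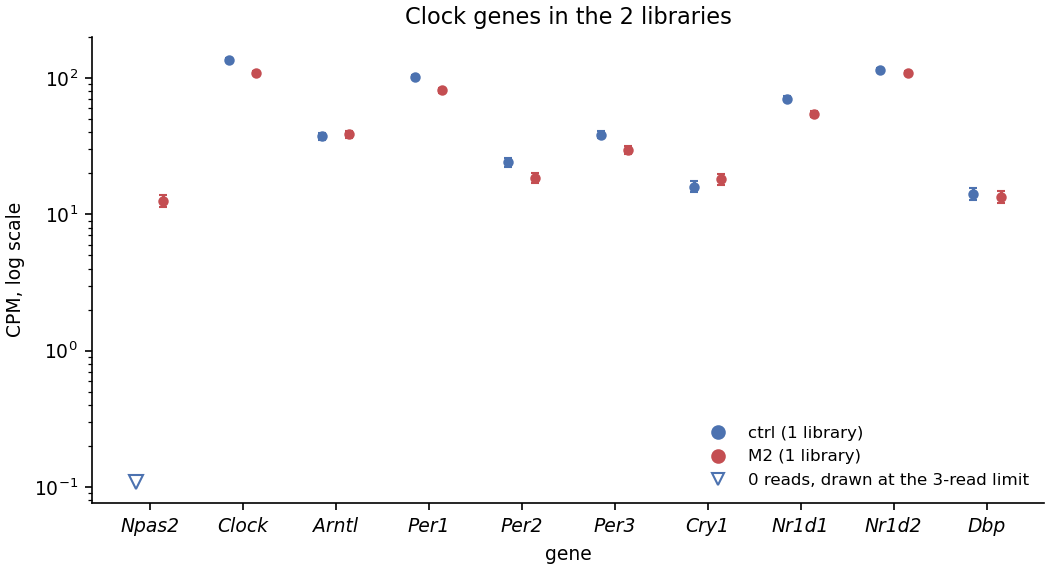
CPM, the read count scaled to library size (log axis), of the 10 clock genes in the ctrl library (blue) and the M2 library (red), with 95% Clopper-Pearson intervals that cover counting error only. Npas2 had 0 reads in ctrl and is drawn there at the limit of 3 reads (0.109 CPM), against 12.5 CPM in M2, while the 2 points of every other gene lie close together.

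Promoter sequences are shown for Npas2, the gene that differed most, and for those clock genes whose promoter held a binding motif of the loop upstream of the start. All were taken from RefSeq on GRCm38.p6, where 9 of the 10 genes (all but Per2) had at least 1 entry, and all are given 5′ to 3′ on the strand of the gene. The windows ran from 250 bases before to 50 bases after an annotated start, and only the part outside the exons of the count table is printed. Capitals mark the motifs, which were searched on both strands: the E-box CACGTG, the E'-box CACGTT, the D-box TTANGTAA with C or T at N, the RORE, and the cAMP response element TGACGTCA. A motif on the other strand reads here as its reverse complement, so that the E'-boxes below appear as AACGTG. Motifs that overlap were each counted. The stretches were Npas2 at chr1:39194022-39194211 (plus strand), Per1 at chr11:69098699-69098947 (plus strand), Per3 at chr4:151044666-151044915 (minus strand), Cry1 at chr10:85185065-85185304 (minus strand) and Nr1d1 at chr11:98775378-98775627 (minus strand).
Npas2: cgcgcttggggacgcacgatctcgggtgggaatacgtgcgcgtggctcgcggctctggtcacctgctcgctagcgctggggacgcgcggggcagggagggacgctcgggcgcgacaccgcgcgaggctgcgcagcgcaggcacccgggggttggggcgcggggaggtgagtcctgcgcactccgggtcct
Per1: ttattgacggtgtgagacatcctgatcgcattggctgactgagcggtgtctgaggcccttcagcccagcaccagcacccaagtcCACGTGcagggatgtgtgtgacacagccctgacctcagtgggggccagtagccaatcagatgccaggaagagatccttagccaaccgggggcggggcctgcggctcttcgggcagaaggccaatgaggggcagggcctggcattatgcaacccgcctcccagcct
Per3: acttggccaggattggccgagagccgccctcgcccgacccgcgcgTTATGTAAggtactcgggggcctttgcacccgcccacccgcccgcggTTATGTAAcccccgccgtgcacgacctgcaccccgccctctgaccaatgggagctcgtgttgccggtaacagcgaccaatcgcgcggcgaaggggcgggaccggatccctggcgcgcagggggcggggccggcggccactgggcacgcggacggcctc
Cry1: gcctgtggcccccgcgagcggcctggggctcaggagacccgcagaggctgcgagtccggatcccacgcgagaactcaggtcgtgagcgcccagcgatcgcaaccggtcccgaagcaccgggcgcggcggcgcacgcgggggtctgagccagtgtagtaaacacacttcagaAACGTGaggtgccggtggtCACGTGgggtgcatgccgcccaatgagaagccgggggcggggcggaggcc
Nr1d1: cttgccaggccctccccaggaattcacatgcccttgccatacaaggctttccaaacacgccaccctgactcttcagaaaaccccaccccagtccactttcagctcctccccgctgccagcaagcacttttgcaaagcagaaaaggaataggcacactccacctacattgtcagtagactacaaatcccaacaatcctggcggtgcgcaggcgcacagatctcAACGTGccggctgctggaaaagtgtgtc

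The Npas2 stretch lies between the first and the second exon of the table and ahead of the RefSeq start. It holds none of the 5 motifs, nor does the rest of its window, which says only that these letters are not in this window. Per1 had 1 E-box in 1 of its windows, Per3 had 2 D-boxes, Cry1 had 1 E-box and 1 E'-box, and Nr1d1 had 1 E'-box. Of 32544 different promoter windows, 7.17% held an E-box, 4.71% an E'-box, 1.05% a D-box, 0.384% a RORE and 1.80% a cAMP response element. In the remaining windows of the set, the only match was a RORE in 1 of the 2 Arntl windows, 26 to 36 bases after its start. A match describes the sequence and is not evidence of binding.

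Npas2 encodes a bHLH-PAS protein that can take the place of Clock beside Arntl. The gene (protein coding, chromosome 1, 39193731 to 39363236, plus strand, with 3 GENCODE transcripts) had no exon base shared with another gene. Its 361 reads in M2 equal 12.5 CPM (95% interval 11.3 to 13.9), and its 0 reads in ctrl allow up to 3 reads, or 0.109 CPM. Set against that limit of 3 reads, Npas2 was at least 114.7-fold higher in M2, a log2 difference of at least 6.84. The 95% interval used for the other genes, which also takes in the counting error of M2, had its lower end at 6.54 for Npas2. Of 2659 genes with reads in M2 and 0 in ctrl, 53 reached 10 reads and 3 reached 100. No gene with 0 reads in ctrl had more reads in M2 than Npas2, but Npas2 was chosen on these same reads, so nothing is read from its rank. In the opposite direction, of 2088 genes with reads in ctrl and 0 in M2, 48 reached 10 reads and 1 reached 100. The gene with the most ctrl reads among those at 0 in M2 had 116.

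Genes around Npas2 had reads in both libraries. Upstream, Pdcl3 had 2375 ctrl reads and 3950 M2 reads, a log2 difference of 0.66 (95% interval 0.59 to 0.74). Downstream and only 4606 bases away, Rpl31 had 5883 and 7509 reads, a difference of 0.28 (0.23 to 0.33). Tbc1d8, the next gene, had 455 and 316 reads, a difference of -0.59 (-0.81 to -0.38). Of the 3 nearest genes on each side with at least 10 reads, none was empty in ctrl, and only Chst10, with 17 and 6 reads, was at least 2-fold apart. The 2 genes that lie inside Npas2 without sharing exon bases, Gm20428 and Gm3617, had 0 reads in ctrl and 0 and 1 in M2.

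Clock (chr5:76209868-76304792, minus strand on GRCm38, as for all genes below), the paralog that binds the same partner, was somewhat lower in M2. It had 3744 reads in ctrl and 3150 in M2, or 136 and 109 CPM, a log2 difference of -0.32 (95% interval -0.39 to -0.25). The ctrl library, with the more Clock reads of the 2, had 0 Npas2 reads. Of the reads of both paralogs together, Npas2 took 0% in ctrl (0 of 3744, which allows a share of up to 0.0801% at the limit of 3 reads and 0.0985% at the upper end of the Clopper-Pearson interval) and 10.3% in M2 (361 of 3511, 95% Clopper-Pearson interval 9.30 to 11.3). Clock has a longer transcript model, 13727 bases against 4791, and per kilobase the Npas2 share in M2 was 24.7%. Such a share needs no scaling between libraries.

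Arntl (chr7:113207465-113314126, plus strand), the shared partner of Clock and Npas2, did not differ beyond counting error. It had 1028 reads in ctrl and 1118 in M2, or 37.4 and 38.8 CPM, a log2 difference of 0.05 (95% interval -0.07 to 0.18). Its sign turned to -0.02 at the lowest under another scaling, so no direction is given. Because Clock was lower and Arntl was not, the ratio of Clock to Arntl reads went from 3.64 in ctrl to 2.82 in M2, a log2 change of -0.37 (-0.51 to -0.23).

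The Per genes encode the repressors that limit the Clock and Arntl pair, and all 3 were somewhat lower in M2. They lie at chr11:69095217-69109960 on the plus strand (Per1), chr1:91415982-91459324 on the minus strand (Per2) and chr4:151003652-151044665 on the minus strand (Per3). Per1 had 2801 ctrl reads and 2353 M2 reads, a log2 difference of -0.32 (95% interval -0.40 to -0.24). Per2 had 661 and 533 reads, a difference of -0.38 (-0.55 to -0.21). Per3 had 1059 and 856 reads, a difference of -0.38 (-0.51 to -0.24). The 3 intervals overlapped, and the ratio of Per1 to Per2 reads, 4.24 in ctrl and 4.41 in M2, changed by 0.06 (-0.12 to 0.24). Cry1 (chr10:85131700-85185064, minus strand), the partner of the Per proteins in repression, was not lower. It had 438 and 521 reads, a log2 difference of 0.18 whose interval of -0.0049 to 0.37 reached 0.

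Of the REV-ERB receptors, which repress Arntl, Nr1d1 was somewhat lower in M2 and Nr1d2 only slightly below 0. Nr1d1 lies at chr11:98767932-98775333 and Nr1d2 at chr14:18204054-18239127, both on the minus strand. Nr1d1 had 1939 reads in ctrl and 1575 in M2, or 70.6 and 54.7 CPM, a log2 difference of -0.37 (95% interval -0.47 to -0.27). Nr1d2 had 3172 and 3148 reads, a difference of -0.08 (-0.15 to -0.0086), and 85.3% of all genes with at least 10 reads lay at least as far from 0. The ratio of Nr1d1 to Nr1d2 reads was 0.611 in ctrl and lower in M2, a log2 change of -0.29 (-0.41 to -0.17). Nr1d1 shares 263 exon bases, 8.55% of its length, with Thra on the other strand. Thra had 1384 and 803 reads and was also lower in M2, and since no source says whether reads were counted by strand, those of that stretch are uncertain.

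Dbp (chr7:45705088-45710203, plus strand), a transcription factor that peaks with strong daily amplitude in many tissues, did not differ beyond counting error. It had 390 reads in ctrl and 389 in M2, or 14.2 and 13.5 CPM, a log2 difference of -0.07 (95% interval -0.28 to 0.13). Dbp shares 539 exon bases, 18.0% of its length, with Sphk2 on the other strand, which had 863 and 691 reads, and the same uncertainty applies. The ratio of Dbp to Arntl reads, genes that are known to peak at opposite times of day in many tissues, was 0.379 in ctrl and 0.348 in M2, a change of -0.12 (-0.36 to 0.11). For Nr1d1 to Arntl it was 1.89 and 1.41, a change of -0.42 (-0.58 to -0.27), and for Per2 to Arntl 0.643 and 0.477, a change of -0.43 (-0.64 to -0.23). All ratios between the reads of a pair of clock genes, those above included, were picked after the values had been seen. The Npas2 share is no exception, since Npas2 was chosen on the same reads.

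**Figure D2:**
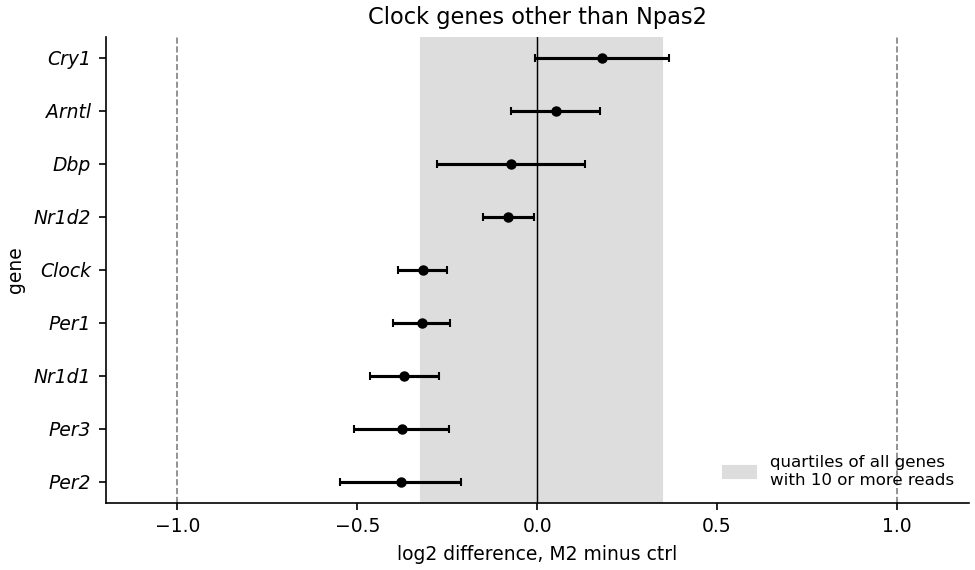
Log2 difference (M2 minus ctrl) of the 9 clock genes other than Npas2, with 95% intervals from the reads. All lie within the dashed 2-fold lines. Cry1 (0.18) is the highest and Per2 (-0.38) the lowest, beside a grey band from -0.32 to 0.35 that holds the middle part of all genes with at least 10 reads.

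Without Npas2, the median log2 difference of the 9 genes was -0.32, with 7 below 0 and 2 above. The median of all genes with at least 10 reads was -0.0032, with quartiles of -0.32 and 0.35. Intervals of 6 of the 9 genes lay below 0, none lay above, those of 3 held 0, and all 9 lay within 2-fold. Of all genes with at least 10 reads, 27.9% had an interval below 0 and 28.8% above, and of those with at least 300 reads, 34.4% and 35.1%. Since the genes were picked on these reads, nothing is read from the difference. Per2, the lowest, stood at the 22.2 percentile of all genes, Nr1d1 at 22.6, Clock at 25.2 and Cry1 at 65.3. At this depth small differences exceed counting error, and that error is not the spread between cultures.

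**Figure D3:**
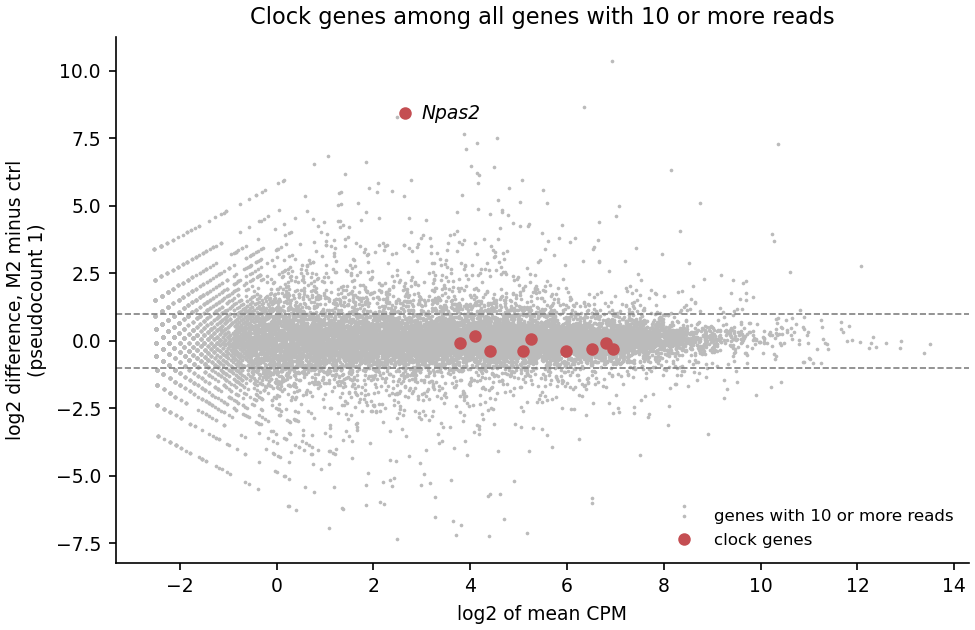
Log2 difference (M2 minus ctrl, with a pseudocount of 1) against the log2 of mean CPM for all 19233 genes with at least 10 reads (grey) and the 10 clock genes (red). Npas2 stands far above the dashed 2-fold lines at a value that depends on the pseudocount, and the other 9 clock genes lie between the lines.

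Levels per length kept nearly the same order in both libraries. In TPM, which divides reads by gene length and scales each library to the same total, ctrl ran from Nr1d2 (60.1) and Nr1d1 (59.7), whose intervals overlapped, through Per1 (47.1) and Clock (25.8) to Arntl (12.9), Cry1 (12.4), Dbp (12.3), Per2 (10.7) and Per3 (10.4), where each neighbour overlapped the next. The M2 order was Nr1d2 (55.1), Nr1d1 (44.8), Per1 (36.6), Clock (20.1), Cry1 (13.7), Arntl (13.0), Dbp (11.4), Per2 (7.96), Per3 (7.80) and Npas2 (6.59). There Nr1d2 and Nr1d1 no longer overlapped, while Cry1 and Arntl, Arntl and Dbp, Per2 and Per3, and Per3 and Npas2 did. Only Arntl and Cry1 changed places, and the other 8 kept theirs. Npas2 was last in M2 but within 2-fold of Dbp, whereas in ctrl its limit of 3 reads equals 0.0593 TPM.

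A list of 30 further genes of the clock pathway was examined, of which 29 had at least 10 reads. Only Klf9, a clock-controlled transcription factor that glucocorticoids also induce, was at least 2-fold higher in M2, with 238 and 524 reads and a log2 difference of 1.07 (95% interval 0.85 to 1.30). With library totals that left out mitochondrial genes no gene of the list reached 2-fold, and with a trend in gene length removed both Klf9 and Hlf did. With the scaling used throughout, none was at least 2-fold lower, beside the 9.53% higher and 7.82% lower of all genes. The median was -0.06, with 12 genes above 0 and 17 below. Klf10, an output that TGF-beta induces as well (1372 and 2862 reads, 0.99, 0.90 to 1.09), and Hlf, a D-box activator related to Dbp (157 and 328 reads, 0.99, 0.71 to 1.28), lay just inside 2-fold and were picked out after their values had been seen.

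Paralogs of the main genes gave values of their own. Arntl2, which can replace Arntl, had 472 ctrl reads and 568 M2 reads, a log2 difference of 0.20 (95% interval 0.02 to 0.38). Cry2, the paralog of Cry1, had 714 and 551 reads, a difference of -0.44 (-0.61 to -0.28). Rora, a receptor that competes with the REV-ERB receptors for RORE sites and activates there, had 757 and 875 reads, a difference of 0.14 (-0.0022 to 0.28). Rorb had 0 reads in both libraries.

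The repressors of E-box transcription outside the Per and Cry families differed among themselves. Bhlhe41 (Dec2) had 3949 ctrl reads and 6846 M2 reads, a log2 difference of 0.72 (95% interval 0.67 to 0.78). Its paralog Bhlhe40 (Dec1) had 6085 and 6668 reads, a difference of 0.06 (0.01 to 0.11). Ciart, a repressor of the Clock and Arntl pair, had 159 and 149 reads, a difference of -0.16 (-0.50 to 0.17). Among the D-box factors, the activator Tef went the other way from Hlf, with 2928 and 2072 reads and a difference of -0.57 (-0.65 to -0.49), while the repressor Nfil3 had 524 and 576 reads and a difference of 0.07 (-0.11 to 0.24).

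A group of 9 genes held kinases, factors of protein turnover and Timeless, which is neither, and most lay near 0. Timeless (0.41, 372 and 518 reads) and Usp2 (-0.59, 117 and 81 reads) lay farther away, besides Fbxl21 with 11 and 16 reads. The casein kinases Csnk1d and Csnk1e, which phosphorylate the Per proteins, had log2 differences of 0.08 and 0.03. The median of the group was -0.06. The 6 cofactors had a median of -0.21, from Kat2b, an acetyltransferase (-0.56), to Ncor1, a corepressor of the REV-ERB receptors (-0.04). All 6 values were below 0, as were 9671 of the 19233 values of all genes, and the intervals of Ncor1 and Ep300 held 0. Of the other outputs, the kinase Wee1 had -0.30 and Nampt, an enzyme of NAD synthesis, had -0.21.

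**Figure D4:**
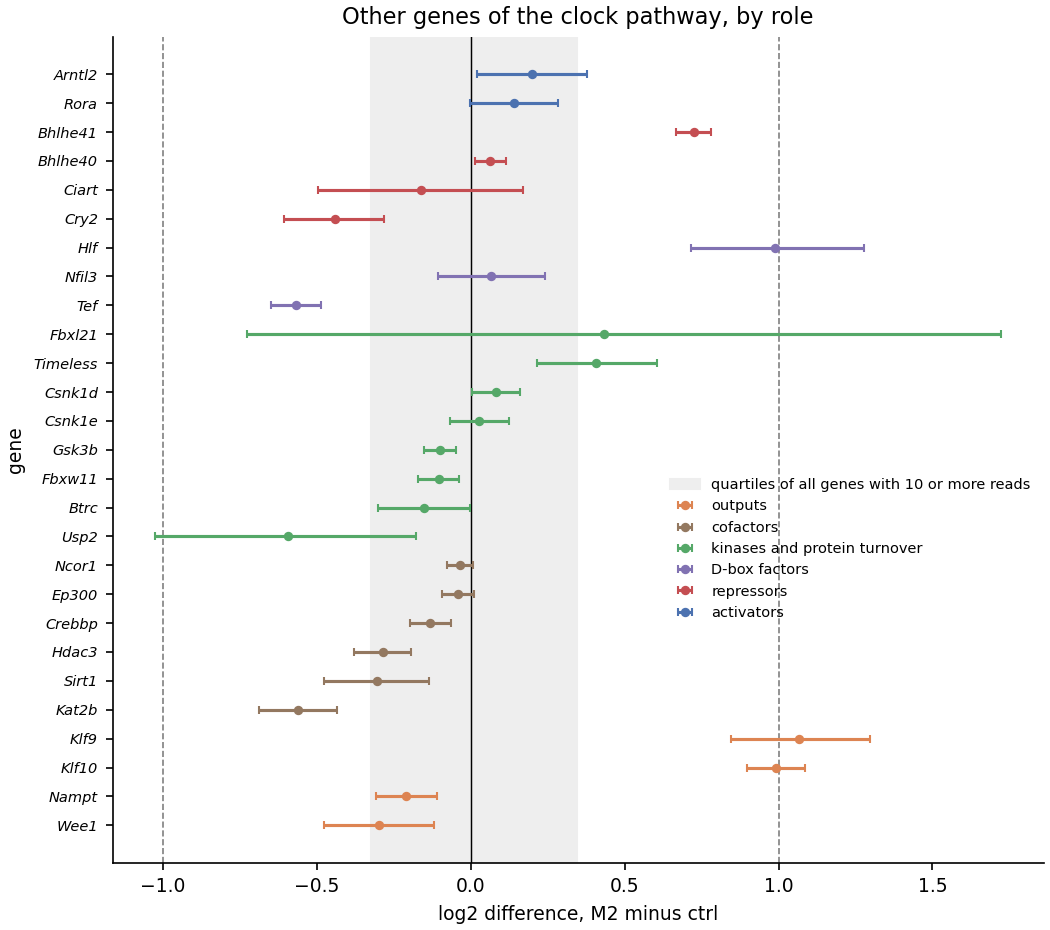
Log2 difference (M2 minus ctrl) of the further clock pathway genes that are reported by name and had at least 10 reads, coloured by role, with 95% intervals from the reads. Klf9 (1.07) is the only point beyond the dashed 2-fold lines, and Usp2 (-0.59) is the lowest.

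Both libraries were of similar depth, with 26912610 reads in ctrl and 29413844 in M2. The 10 clock genes summed to 555 CPM in ctrl and 486 in M2. Basal markers were present at similar summed levels, 7466 CPM in ctrl and 7493 in M2, though Krt14 and Krt5 moved apart (-0.32 and 0.50) and Oxtr, the oxytocin receptor gene, was lower in M2 (8324 and 1920 reads, -2.18), the 1 of 6 that was at least 2-fold apart. Of 9 luminal markers 5 (Elf5, Esr1, Kit, Pgr and Prlr) were at least 2-fold lower in M2, against 7.82% of all genes. The luminal keratins Krt8 (0.21), Krt18 (-0.05) and Krt19 (-0.78) and Epcam (0.06) were not. All 9 summed to 3944 and 3202 CPM. Of 7 fibroblast markers, 6 had at least 10 reads. Of these, Col1a2, Col3a1 and Lum (10 and 3 reads) were at least 2-fold lower and Dcn (51 and 157) at least 2-fold higher. These 3 lower and 1 higher stand beside 7.82% and 9.53% of all genes. All 7 summed to 320 and 132 CPM, mostly from collagen genes, while Pdgfra had 607 and 822 reads. The 5 adipocyte markers summed to 9.65 and 0.590 CPM, mostly from Lep (198 and 6 reads) and Fabp4 (62 and 10). The other adipocyte markers, Adipoq, Plin1 and Cidec, had at most 2 reads in either library. The 4 endothelial markers summed to 2.08 and 2.81 CPM. Of the endothelial markers Pecam1 had 33 and 76 reads, whereas Cdh5 had 11 and 2 and Kdr 11 and 0. In bulk RNA, fewer cells of a type and less RNA per cell cannot be told apart, and the part of these differences in the clock gene values was not tested. The 13 macrophage markers summed to 64.9 and 82.1 CPM, mostly from Arg1 (1507 and 2090 reads), which other cells also express, and the remaining 12 to 10.1 and 9.54. Adgre1, Ptprc, Tyrobp, Fcer1g and Chil3 had 0 reads in both libraries. Cd68 had 170 and 165 reads and Csf1r 94 and 92. Itgam had 3 and 9 and Mrc1 had 1 and 5, while Lyz2 had 3 and 1, Ctss 5 and 2 and Retnla 1 and 1. The part of macrophage RNA in the Npas2 reads was not tested.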

How the data were processed

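RNA was measured in 1 ctrl and 1 M2 library, grouped by the sample labels. The authors deposited whole-number read counts for each gene, not normalized. The submitters' processing notes name GRCm38 and mm10. The aligner, the counting tool, the gene models, how strand was handled and any read filter are not given in the sources used here. GEO's design text speaks of a microarray, but the values are sequencing counts. Start and end of all 10 genes were the same as in GENCODE M21 (GRCm38).

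Library sizes were scaled by TMM in edgeR 4.0.16 under R 4.3.3 (factors 1.02 for ctrl and 0.980 for M2). The log2 difference was taken after adding a pseudocount of 1 to the reads and dividing by scaled library size, for genes with at least 10 reads over both libraries. Intervals are Clopper-Pearson at 95% (Python 3.11.15, scipy 1.17.1), and intervals of changes in a ratio are normal approximations from the counts. Intervals and floors cover counting error only, since no molecular identifiers are stated. A count of 0 allows up to 3 reads. TPM used the gene lengths of the table. With 1 library per group no dispersion can be estimated, so the quasi-likelihood test and DESeq2 were not run and no p-value is given. The functions were tested on simulated data.

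The genes and lists were chosen with earlier results of these data known. Named were all 10 genes, Arntl2 and Cry2, and members of the other clock and bHLH-PAS lists at least 2-fold apart with at least 50 reads in a library. Others were picked after their values were seen. Some genes of the lists count in the totals but are not reported by name here.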

Additional observations from a re-analysis of the deposited data

How the results depend on the processing

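Choices were changed singly, over 4 other scalings, 2 other pseudocounts, 3 other filters, removal of a trend with gene length and 2 other fold thresholds. Npas2 was the only clock gene of the 10 at least 2-fold apart under each of these, except that when both libraries had to reach 1 CPM it could not enter, which left 0, and its lower bound ran from 6.77 to 6.85 over the scalings. Npas2 was chosen for its 0 reads in ctrl and passed the read filters through M2 alone. No scaling, pseudocount or threshold tried could have undone its call, so this is not a check. Of the 9 other genes, 8 kept their sign under the scalings, pseudocounts and length trend, and Arntl did not. Clock left its interval in 2 settings, at -0.39 without mitochondrial reads in the totals and -0.23 with the length trend removed. The other scalings moved the median of all genes by at most 0.07 in size.

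Among the further clock genes, the 1 gene at least 2-fold higher (Klf9) became 0 with totals without mitochondrial genes, 2 with the length trend removed (Klf9 and Hlf) and 0 at a 4-fold threshold. At 1.5-fold there were 4 higher (Klf9, Klf10, Hlf and Bhlhe41) and 1 lower (Usp2). Over all genes, the numbers higher and lower, 1832 and 1504, became 3174 and 4001 with no filter, 797 and 583 with at least 1 CPM in both libraries, 644 and 438 with at least 300 reads (a choice made after seeing the data), 3179 and 2842 at 1.5-fold, and 616 and 494 at 4-fold, because more or fewer genes can pass. With no filter 44.2% of the genes at least 2-fold apart were higher, against 54.9%. Per kilobase, the Npas2 share in M2 was 24.7% in place of 10.3%. No paired analysis was possible because ctrl and M2 have 1 library each.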

Other observations

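Npas2 belongs to the bHLH-PAS family, whose other members include oxygen and xenobiotic sensors and steroid receptor coactivators. Of 15 further family members, 12 had at least 10 reads and their median log2 difference was -0.28, with 1 at least 2-fold higher (Npas4) and 3 lower (Arnt2, Ahrr and Npas1), against 9.53% higher and 7.82% lower of all genes. Arnt2, a partner of several family members, was at least 2-fold lower in M2, with 81 reads in ctrl and 39 in M2 and a difference of -1.10 (95% interval -1.71 to -0.56). Epas1, which encodes the oxygen-regulated factor HIF-2 alpha, lay just inside 2-fold, with 3402 and 7027 reads and a difference of 0.98 (0.92 to 1.04), while Hif1a had 4836 and 5370 reads and a difference of 0.08 (0.03 to 0.14). Both were picked after their values were seen. Npas3, a neuronal paralog of Npas1, had 419 and 306 reads (-0.52, -0.74 to -0.31). Npas1 had 14 and 4 reads, Npas4 had 5 and 17, and Ahrr had 15 and 5.

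Other genes had many reads in M2 and 0 in ctrl. After Npas2 came Acod1, which encodes the enzyme that makes itaconate (325 reads), Ceacam10 (121 reads) and the forkhead transcription factor Foxa2 (98 reads). Among genes with 0 reads in M2, Calm4, a calmodulin-like gene of squamous epithelium, had 116 reads in ctrl and Gm12888 had 72.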
